A study of Arabidopsis thaliana with 12 samples.

Results

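The response to sucrose was measured in Arabidopsis thaliana seedlings that express FUSCA3 (FUS3), by comparing 3 arrays of seedlings grown with 1.5% sucrose with 3 arrays of seedlings grown without it. These are 6 of the 12 ATH1 arrays of the study, and all 22746 probe sets that are not controls were compared. The FUS3 seedlings are line 2-8 of ESTpro:FUS3-strong, in which estradiol switches the transgene on, and they are called FUS3 here. They were germinated on 1/2MS medium with 5 µM estradiol, with sucrose or without it, and total RNA was taken from whole seedlings at 8 days. The other 6 arrays hold wild-type (WT) seedlings of the same age, 3 arrays with sucrose and 3 without it. The labels name estradiol for the medium of line 2-8, while the design text places both lines under inducing conditions, so it is not settled whether WT received it. Line 2-8 is 1 transgenic line, and its response is set against WT only to show where the 2 differ. The labels call the arrays of a group biological replicates.

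FUS3 is a B3-domain transcription factor of developing seeds, where it promotes maturation: the filling of the embryo with storage proteins and oil and the onset of desiccation tolerance. It is normally silent in seedlings. Sucrose is both a carbon source and a signal for plant cells. It is known to lower transcripts of photosynthesis and of the response to carbon starvation, and to raise those of anthocyanin and starch synthesis. Oil in seeds is triacylglycerol, which is stored in droplets coated with oleosins and is broken down after germination through fatty acid beta-oxidation and the glyoxylate cycle.

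The values are linear array signals, 1 per probe set and array, and a change is the difference of means of log2(signal + 16), which understates changes of transcripts with low signal. Signals of a few units lie at the low end of the scale, and no detection call was used here. A probe set was called when its adjusted p was under 0.05 in limma, fitted on all 12 arrays and adjusted after Benjamini and Hochberg over all 22746. Replicates correlated at 0.985 to 0.989 (Pearson r over probe sets of 2 arrays of a group), and the median SE of a log2 change was 0.15. The number of arrays limits the precision. Array medians were 387 to 398 in FUS3 without sucrose and 434 to 443 with it, although the trimmed means were equal at 1000.08 to 1000.09.

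Sucrose changed a large share of the transcriptome of FUS3 seedlings. Of the 22746 probe sets 8939 were called (39.3%), 4967 higher with sucrose (21.8%) and 3972 lower (17.5%). In WT 5919 were called (26.0%), 3618 higher (15.9%) and 2301 lower (10.1%). The median log2 change over all probe sets was 0.04 in FUS3 and 0.02 in WT. Subtracting each array's median moved these to -0.11 and -0.13, and the calls in FUS3 to 3257 higher and 5353 lower, so the split between rises and falls depends on the scaling, and small changes below are to be read against that shift.

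Changes of at least 2-fold were called for 1190 probe sets higher (5.23%) and 1162 lower (5.11%) in FUS3, and for 930 higher (4.09%) and 317 lower (1.39%) in WT. Larger rises were more numerous in FUS3. A rise of at least 8-fold was called for 194 probe sets in FUS3 and 27 in WT, and a rise of at least 32-fold for 34 and 2. A fall of at least 8-fold was called for 10 in each line. The largest rise of all belonged to a probe set for which the annotation table used here gives no gene, from a mean signal of 10.4 to 5470.2, a log2 change of 7.79 (SE 0.28).

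Whether the 2 lines answered sucrose differently was tested by the difference of their responses, FUS3 minus WT. It was called for 5253 probe sets (23.1%), 2224 of them positive (9.78%) and 3029 negative (13.3%), and at a size of at least 2-fold for 826 positive (3.63%) and 1133 negative (4.98%). The changes behind the 2 lists of called probe sets share no array, but their variances come from the same fit of both lines. The 2 lists are therefore not independent, and their overlap is a description. They held 1807 probe sets higher in both lines, 36.4% of the FUS3 list and 49.9% of the WT list. Lower in both were 1352, 34.0% of the FUS3 list and 58.8% of the WT list. Opposite calls were fewer: 227 were higher in FUS3 and lower in WT, and 341 the reverse. Of the 930 probe sets that rose at least 2-fold in WT, 513 rose and 66 fell in FUS3, and their median change was 0.69 in FUS3 beside 1.35 in WT, where they had been chosen. Of the 1190 that rose at least 2-fold in FUS3, 506 rose and 56 fell in WT.

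**Figure D1:**
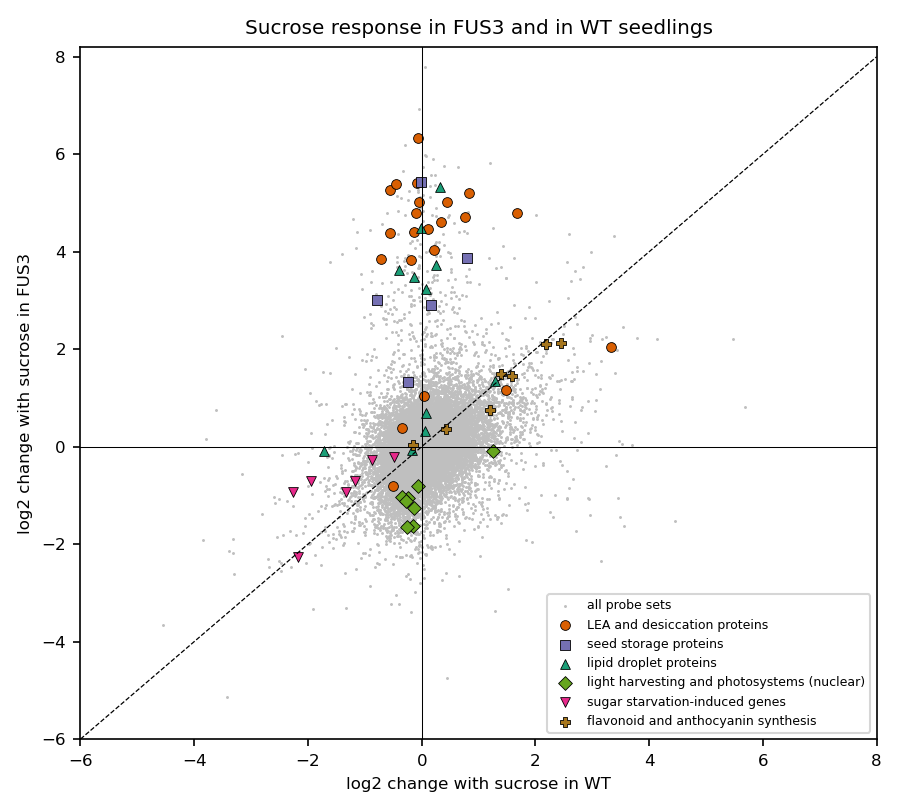
Log2 change with sucrose in FUS3 (vertical axis) against the log2 change with sucrose in WT (horizontal axis) for all 22746 probe sets (grey), with the measured members of 6 gene lists marked. The broken line marks equal changes. Most members of the LEA, storage protein and lipid droplet lists stand high in FUS3 and near 0 in WT, while the anthocyanin genes lie near the line and the photosystem genes below 0 in FUS3.

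Genes were named through the annotation table of the array, which gives 1 gene for 13513 probe sets and does not list 8730. FUS3 is not among the named genes, so its own transcript was not analysed here. The gene lists below were measured for the members that the table names, 1 probe set a locus, and the background for their counts is that of the 13355 named loci, of which 35.7% were called in FUS3, 20.6% higher and 15.1% lower. In WT 22.9% of them were called, 14.0% higher and 8.9% lower, and for the difference of responses 20.4%. The positions given are those of the TAIR10.1 annotation. In RNA of whole seedlings, fewer cells of a type and less RNA per cell cannot be told apart. The seedlings carried abundant transcripts of green tissue and of the root in each group: RCA, the Rubisco activase gene, had mean signals of 46037 without and 29592 with sucrose in FUS3, and PYK10, a beta-glucosidase gene of roots, 32616 and 27681.

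The measured genes of seed storage proteins, which fill the embryo during maturation, were raised by sucrose in FUS3. All 5 measured members of the list of 13 rose, with a median log2 change of 3.02, beside -0.01 in WT, where none rose and PAP85 fell. The storage protein genes CRA1, CRU2 and CRU3 and the SESA genes were not among those measured. AT1G03890, a cruciferin-type 12S globulin gene (chromosome 1, 989198 to 991020), had signals of 335, 471 and 459 without sucrose and of 17641, 19568 and 19011 with it. Its change was 5.43 (SE 0.17, adjusted p = 1.57e-10). In WT its means were 4.57 ± 2.56 (SD, n = 3) and 4.41 ± 2.61, so the 3 FUS3 arrays without sucrose already stood above every WT array and those with sucrose far above them.

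PAP85, a vicilin-like globulin gene (AT3G22640; chromosome 3, 8011724 to 8013941), had 3828, 4165 and 3962 without sucrose and 32045, 31940.0 and 32962 with it, a change of 3.02 (SE 0.11). In WT it fell by 0.79 (SE 0.11) from a mean of 63.3 ± 8.32 to 29.9 ± 6.70. The cupin genes AT2G28490 and AT4G36700, members of the same globulin superfamily, rose by 3.86 (SE 0.37) and 2.90 (SE 0.19). The cupin gene AT2G18540 rose least, by 1.34 (SE 0.23), from 57.6 ± 14.4 to 169 ± 34.1. The difference of responses was called for all 5 genes, with a median of 3.06, against 9.17% of named loci called in that direction.

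Genes of lipid droplet proteins followed. Of 11 measured genes 8 rose and none fell, with a median of 3.23 beside 0.05 in WT. The largest rise was that of the oleosin gene AT2G25890 (chromosome 2, 11037303 to 11038179), with signals of 143, 93.8 and 170.0 without and 5497, 7271 and 5233 with sucrose, a change of 5.33 (SE 0.23, adjusted p = 7.64e-10). Oleosins keep droplets from fusing, and 3 further oleosin genes rose: AT3G18570 by 4.48 (SE 0.22), OLEO3 by 3.62 (SE 0.15) and AT3G01570 by 3.49 (SE 0.23).

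OLEO3 (AT5G51210; chromosome 5, 20820068 to 20820944) shows the steps between the groups. Its signals were 1054, 1235 and 1175 in FUS3 without sucrose and 13469, 15443 and 14219.6 with it, while its WT means were 87.3 ± 22.6 and 61.1 ± 7.79. The 2 FUS3 groups did not overlap with each other or with WT. AT2G47780 rose by 3.73 (SE 0.20) and AT5G16460 by 3.23 (SE 0.30), in both cases with a WT change that was not called. AT1G67360 rose in both lines, by 1.34 (SE 0.12) in FUS3 and 1.28 (SE 0.12) in WT, and the difference of its responses was 0.06 (SE 0.17, adjusted p = 0.849). AT3G05500 rose by 0.68 (SE 0.10). AT4G10790, AT5G16550 and AT5G56100 were not called in FUS3, at 0.32, -0.08 and -0.09. Leaving out the 40% of probe sets with the lowest means removed several of these genes and lowered the median of the list to 1.01.

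**Figure D2:**
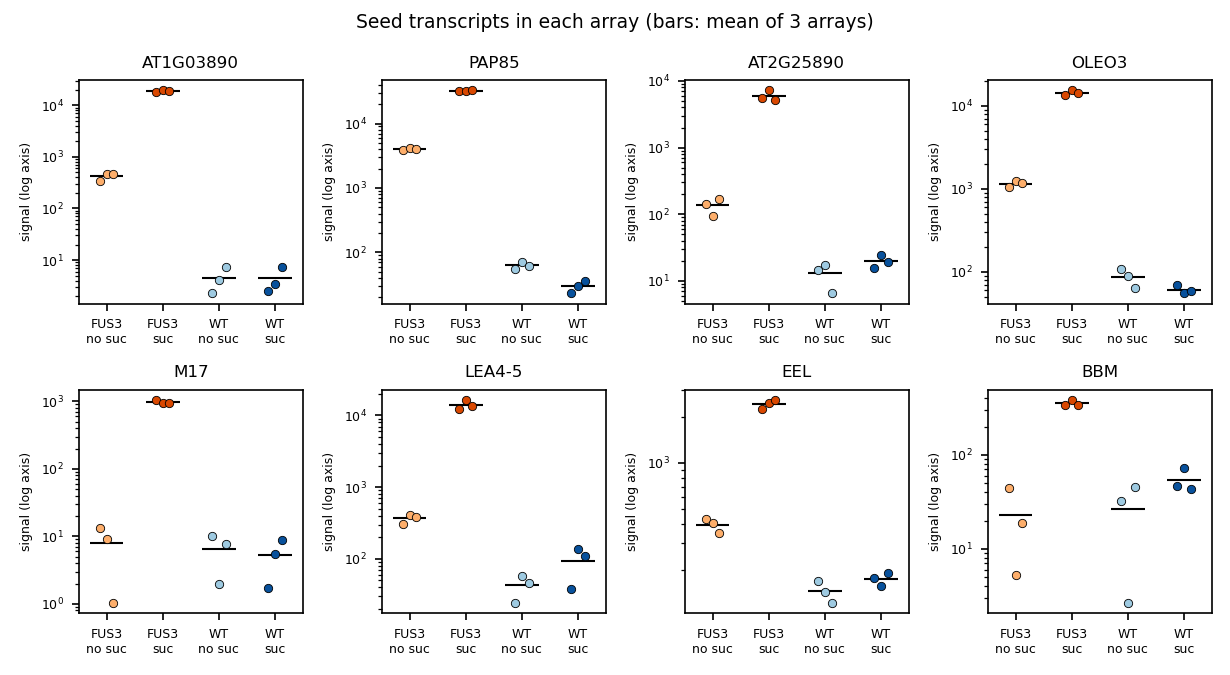
Signals (vertical axes, log scale, arbitrary array units) of 8 seed transcripts in each of the 12 arrays, grouped by line and medium. Points are arrays and bars are means of 3. In each panel the 3 FUS3 arrays with sucrose stand above all other arrays; AT1G03890 goes from a mean of 422 to 18740.2 in FUS3 and has means of 4.57 and 4.41 in WT.

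Late embryogenesis abundant (LEA) and other desiccation proteins, which protect cells as the seed dries, had the largest median change of the lists with at least 3 measured members. Of 22 measured genes 20 rose and 1 fell, with a median of 4.54 beside -0.06 in WT, and the difference of responses was positive for 18 and negative for 1. AT3G53040 (chromosome 3, 19664629 to 19666497) had signals of 110.3, 76.5 and 34.6 without sucrose and 5837, 7705 and 6833 with it. It rose by 6.33 (SE 0.33, adjusted p = 4.47e-09), while its WT means were 31.1 ± 18.8 and 26.0 ± 2.42. Without sucrose its FUS3 signals thus reached down into the range of WT, whereas with sucrose they were far above it.

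M17 (AT2G41260; chromosome 2, 17206452 to 17207698) showed the same in a starker form. Its signals without sucrose were 13.5, 9.05 and 1.03, and its WT means 6.60 ± 4.15 and 5.36 ± 3.53, so that the 3 groups overlapped. With sucrose the FUS3 arrays gave 1050.2, 931 and 943, a rise of 5.41 (SE 0.25). AT3G22490 did likewise, with a mean of 20.7 ± 19.1 without sucrose and 1302 ± 181 with it, a rise of 5.27 (SE 0.34).

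Other members were already above WT without sucrose. LEA18 (AT2G35300) had 222, 375 and 272 without and 11664, 13583 and 12359 with sucrose, a rise of 5.39 (SE 0.44). LEA4-5 (AT5G06760) went from 368 ± 53.8 to 14147 ± 2114, a rise of 5.20 (SE 0.32), and AT3G15670 from 942 ± 225 to 30388 ± 2434, a rise of 5.01 (SE 0.30). A further 11 members had changes of 3.84 to 5.02 and were all called. Smaller or opposite changes were measured for 5 members. LTI30, a dehydrin gene, rose by 1.04 (SE 0.15), and AT2G46140 rose by 1.17 beside 1.48 in WT. AT4G38410 rose by 2.04 (SE 0.24) in FUS3 and by 3.33 (SE 0.24) in WT, and this difference of responses of -1.29 (SE 0.34) was called. COR47, a cold-induced dehydrin gene, fell in both lines, by 0.81 (SE 0.08) in FUS3 and by 0.51 (SE 0.08) in WT. AT3G53770 was not called, at 0.39.

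Among regulators of seed maturation and embryo development, 3 of the 26 listed were measured. EEL, a bZIP factor gene of seed maturation (AT2G41070; chromosome 2, 17129753 to 17132386), had signals of 429, 401 and 345 without and 2262, 2477 and 2590.2 with sucrose, a rise of 2.60 (SE 0.14, adjusted p = 4.16e-09). In WT it stood at 144 ± 24.3 and 175 ± 17.2. BBM, an AP2-type factor gene that promotes embryo identity (AT5G17430; chromosome 5, 5742393 to 5745748), had 45.0, 5.30 and 19.0 without sucrose, in the range of the WT arrays, and 336, 384 and 342 with it, a rise of 3.37 (SE 0.42). bZIP53, the other regulator measured, had means of 4671 ± 31.2 and 4453 ± 346 and was not called, at -0.07 (SE 0.08). It was called lower after the array medians were subtracted, at -0.22. The difference of responses was called for EEL and BBM.

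In oil assembly 2 of 16 listed genes were measured. AT3G44830, an acyltransferase gene known as PDAT2, rose by 2.92 (SE 0.36) from signals of 6.37, 29.6 and 12.8 to 222, 276 and 168. GPDHC1 rose by 0.22, a call lost under 10 of the alternatives tried, and WT gave 0.25. Of 8 measured genes of fatty acid synthesis in the plastid, which supplies the acyl chains, 1 rose and 3 fell in FUS3. Of all named loci 20.6% were called higher and 15.1% lower. The changes of the 8 ran from -0.80 to 0.98, with a median of -0.14 beside -0.17 in WT. FaTA, an acyl carrier protein thioesterase gene, rose by 0.98 (SE 0.14) in FUS3 and 0.88 (SE 0.14) in WT. FATB, another thioesterase gene, fell by 0.48 (SE 0.09) in FUS3 from 4146 ± 183 to 2975 ± 213 and had 0.09 in WT. AT4G16155 and AT4G13050 fell by 0.80 and 0.60. With array medians subtracted 6 of the 8 were called lower.

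Of 4 measured genes of oil breakdown, from a list of 19, 3 were called higher and none lower, with a median of 1.19 beside -0.19 in WT. ICL (AT3G21720; chromosome 3, 7652487 to 7656053), which encodes isocitrate lyase, an enzyme of the glyoxylate cycle, had signals of 3278, 4367 and 3955 without and 29832, 35359.7 and 31206 with sucrose, a rise of 3.06 (SE 0.23). In WT it rose from 15.6 ± 10.9 to 170.1 ± 52.3, by 2.58 (SE 0.23), and the difference of the 2 responses, 0.48 (SE 0.33), was not called (adjusted p = 0.342). SDP1, the main lipase of seed oil, was not called in FUS3, with means of 1052 ± 80.0 and 1083 ± 88.2, while it fell by 0.77 (SE 0.09) in WT, and this difference was called. SDP1-LIKE, its paralog, rose by 2.11 (SE 0.35) from 39.4 ± 22.2 to 207 ± 22.7. AIM1, a multifunctional enzyme of beta-oxidation, rose by 0.27 (SE 0.08), but was not called with array medians subtracted or when replicate 1 of the sucrose group was left out.

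**Figure D3:**
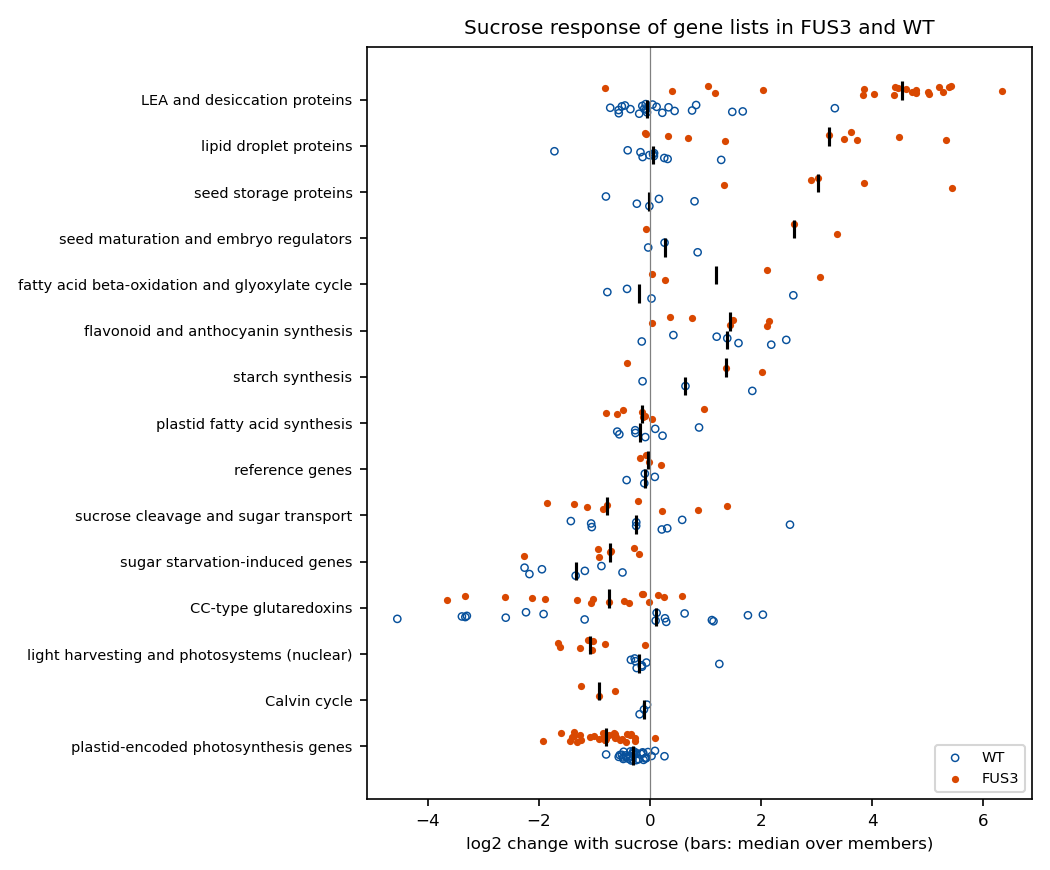
Log2 change with sucrose (horizontal axis) of each measured member of 15 gene lists, filled for FUS3 and open for WT, with black bars at the medians of a list in each line. The LEA, lipid droplet and storage protein medians lie between 3 and 5 in FUS3 and near 0 in WT; the photosynthesis medians lie near -1 in FUS3, and the median of the starvation genes is -0.71 in FUS3 and -1.34 in WT.

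Most measured transcripts of photosynthesis fell. Of 45 listed nuclear genes of light harvesting, the photosystems and the thylakoid ATP synthase only 8 were measured. Of these 7 fell and none rose, and the median was -1.08 in FUS3 beside -0.19 in WT, where 4 fell and 1 rose. LHCB4.1, an antenna protein gene of photosystem II (AT5G01530; chromosome 5, 208866 to 210548), had signals of 36601, 37498 and 36164 without and 15531, 15180.2 and 15228 with sucrose, a fall of 1.26 (SE 0.07, adjusted p = 1.16e-08). In WT its means were 38475 ± 2842 and 34789 ± 1464. The 3 FUS3 arrays with sucrose were the only ones below 33759.7 for this gene. LHCB4.2 fell by 1.62 (SE 0.08), and PSAN, a photosystem I subunit gene, fell by 1.65 (SE 0.09) from 25742 ± 1357 to 8216 ± 802. PSBY, ATPC1, PSBW and PSAE-1 fell by 0.81 to 1.12.

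LHCB4.3 stood apart from the other antenna genes. It was not called in FUS3, at -0.10 (SE 0.15) with means of 2543 ± 349.9 and 2372 ± 261, and it rose by 1.25 (SE 0.15) in WT, from 1082 ± 206 to 2588 ± 451. Its WT level with sucrose was thus near its level in both FUS3 groups. The difference of responses was negative and called for all 8 genes, against 11.2% of named loci called in that direction.

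The Calvin cycle, which fixes carbon, gave the same picture in the 3 genes measured of 17 listed. SBPASE, sedoheptulose bisphosphatase (AT3G55800; chromosome 3, 20709294 to 20711640), had 21378, 22345 and 22966 without and 9565, 8468 and 10061 with sucrose, a fall of 1.25 (SE 0.08). PRK, phosphoribulokinase, fell by 0.92 (SE 0.07) and RCA by 0.64 (SE 0.08). No WT change of these 3 was called, and all 3 differences of responses were. Of chlorophyll synthesis 2 genes were measured: CHLM fell by 1.45 (SE 0.10) from 19299 ± 917 to 7072 ± 855, beside a fall of 0.59 in WT, and PORB fell by 0.63 (SE 0.13).

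Genes of the plastid's own genome were read from a list chosen after their values were seen. Of 33 genes of the photosystems, the cytochrome complex, the ATP synthase and Rubisco 23 were called lower and none higher, and the median was -0.80 beside -0.30 in WT, where 1 fell. rbcL, the large subunit of Rubisco, had 9822, 7083 and 4113 without and 2865, 2308 and 2496 with sucrose, a fall of 1.37 (SE 0.23), and in WT it had 6340.1 ± 1161 and 6695 ± 746. psbA, the D1 protein of photosystem II, fell by 1.41 (SE 0.18) and psbF by 0.74 (SE 0.08). atpH fell by 1.92 (SE 0.36), from signals of 1980.5, 1386 and 472 to 249, 308 and 277. Replicate 3 without sucrose was the lowest of its group for rbcL, psbA and atpH: without it 28 of the 33 were called lower and the median was -1.10, and without replicate 1 the values were 17 and -0.60. A difference of responses was called for 5 of the 33, atpH, psbA, rbcL, petB and psbF.

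Other organelle genes, in lists also chosen after their values were seen, had medians nearer 0. Of 10 plastid genes of the NDH complex, which passes electrons around photosystem I, 3 fell, ndhJ by 1.85 (SE 0.20), ndhK by 1.42 (SE 0.21) and ndhA by 0.31, and 5 were called without replicate 3 of the group without sucrose. Of 15 organelle-encoded ribosomal protein genes 1 was called lower, a count that ranged from 0 to 5 when single arrays were left out, and none of the 4 plastid RNA polymerase genes was called. Of 15 mitochondrial genes 3 were called higher and 1 lower, with a median of 0.24. nad5, a subunit of respiratory complex I, rose by 0.83 (SE 0.20) on 1 probe set and gave 0.52 on its other, and the 7 probe sets of nad1 ranged from -0.64 to 0.51.

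A control probe set for 25S ribosomal RNA moved with the same arrays. Its signals were 2639, 1778 and 1848 in FUS3 without sucrose and 10464.9, 10155 and 9126 with it, and its means in WT were 2491 ± 455 and 3491 ± 1023. The exact permutation test (two-sided) gave p = 0.1 in FUS3, the smallest that 3 against 3 arrays allow, and 0.2 in WT. Of 6 ratios between 3 prime and 5 prime controls, 3 reached an exact permutation p of 0.1 in FUS3, with an actin set going from 15.7 ± 3.06 to 21.7 ± 0.489 and a ubiquitin set from 1.44 ± 0.0823 to 1.29 ± 0.0278. The part of ribosomal RNA or of RNA quality in the results of the plastid genes, or of any other list, was not tested.

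**Figure D4:**
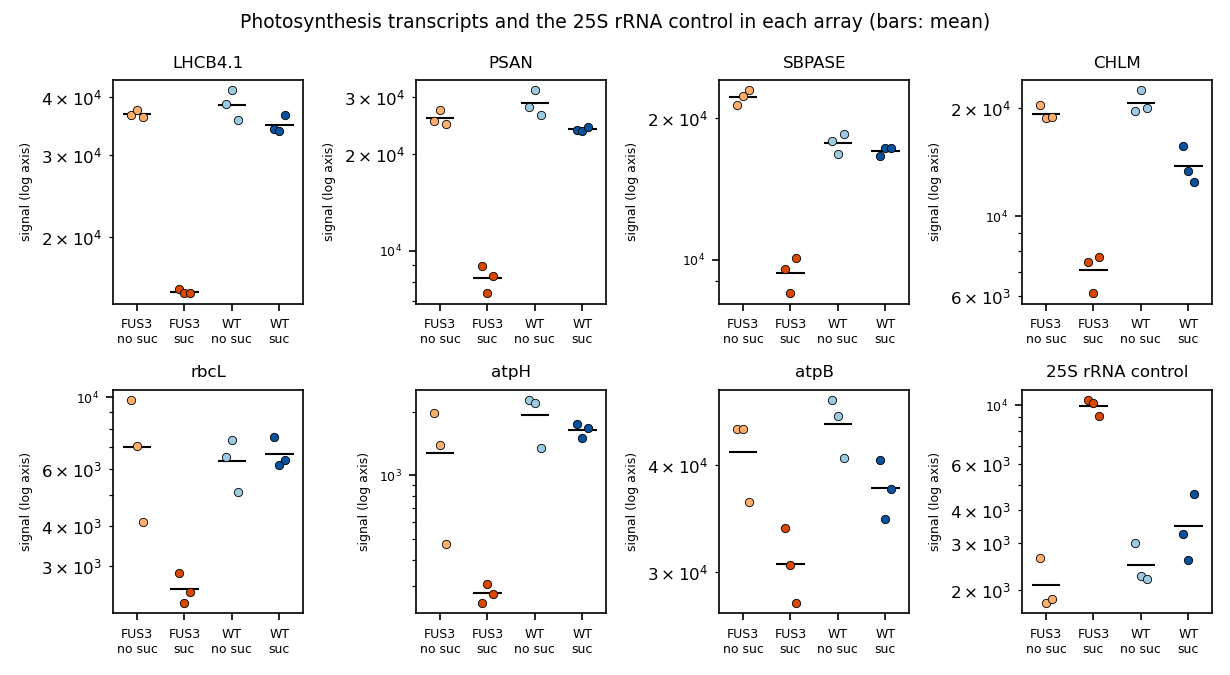
Signals (vertical axes, log scale, arbitrary array units, ranges differ between panels) of 7 photosynthesis transcripts and of the 25S rRNA control in each array. Points are arrays and bars are means of 3. The FUS3 arrays with sucrose are the lowest group for each transcript and the highest for the 25S control, at a mean of 9915.

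Genes that plants induce when sugar runs out fell with sucrose in both lines, 5 of the 7 measured less in FUS3 than in WT. In FUS3 6 of the 7 fell, with a median of -0.71, and all 7 in WT, with a median of -1.34. MCCA, a subunit of methylcrotonyl-CoA carboxylase in leucine breakdown (AT1G03090; chromosome 1, 739544 to 744184), had 2332, 1805 and 1919 without and 1064, 1044 and 1024 with sucrose, a fall of 0.93 (SE 0.10). In WT it fell by 2.26 (SE 0.10) from 5385 ± 553 to 1111 ± 92.9, so the 2 lines had like levels with sucrose and the WT level without it was the higher. IVD, isovaleryl-CoA dehydrogenase of the same pathway, fell by 0.70 (SE 0.08) in FUS3 and by 1.95 (SE 0.08) in WT.

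The difference of responses was positive and called for 5 of the 7: MCCA, IVD, MCCB, ETFQO, which passes electrons from this pathway to the respiratory chain, and AKINBETA1, a subunit of the SnRK1 kinase that senses energy. AT3G15450 fell by 2.26 (SE 0.12) in FUS3, from 14162 ± 1584 to 2939 ± 259.8, and by 2.17 (SE 0.12) in WT, and these responses did not differ by more than their error, at -0.09 (SE 0.17, adjusted p = 0.763). D2HGDH was not called in FUS3, at -0.20 (SE 0.10).

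Anthocyanin synthesis, a well-known sugar response, rose in both lines. Of 7 measured genes 6 rose in FUS3 and 6 in WT, with medians of 1.44 and 1.39. DFR, dihydroflavonol reductase (AT5G42800; chromosome 5, 17164093 to 17166032), had 380.3, 479 and 458 without and 1943, 2419 and 1636 with sucrose, a rise of 2.13 (SE 0.20). In WT it rose by 2.45 (SE 0.20), from 161 ± 34.5 to 968 ± 288. The difference, -0.32 (SE 0.29), was not called (adjusted p = 0.487). AT4G14090, UF3GT and AT5MAT, which add sugars and malonyl groups to anthocyanins, rose by 2.11, 1.50 and 1.44. UGT78D1, a flavonol glycosyltransferase gene, rose by 0.76 (SE 0.08) beside 1.20 (SE 0.08) in WT, and its difference of responses was the 1 of the list that was called. UGT78D2 rose by 0.37, a call lost after subtraction of array medians. BAN, which belongs to the tannin branch of the seed coat, had means of 8.12 ± 4.78 and 8.68 ± 5.46 and was not called.

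Starch synthesis was represented by 3 genes. APL3, a large subunit of ADP-glucose pyrophosphorylase (AT4G39210; chromosome 4, 18259547 to 18263468), had 180.0, 172 and 184 without and 871, 769 and 693 with sucrose, a rise of 2.02 (SE 0.16) beside 1.84 (SE 0.16) in WT. APL4, another large subunit, rose by 1.37 (SE 0.21) beside 0.64 (SE 0.21). SBE2.2, a branching enzyme, was called lower at -0.41 (SE 0.14), a call lost without any 1 of 4 arrays. None of the 3 differences of responses was called. In starch breakdown PWD was called lower at -0.25 and DPE1 higher at 0.26, and both calls were lost when single arrays were left out.

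Sugar transporters were split. Of 9 measured genes of sucrose cleavage and sugar transport 5 fell and 2 rose, with a median of -0.78 beside -0.25 in WT. The list holds only some of the SWEET genes: of all 14 measured under that symbol 5 fell and 4 rose, with a median of -0.14 beside -0.25 in WT, and the difference of responses was positive for 2 and negative for 3. SWEET11, which exports sucrose towards the phloem (AT3G48740; chromosome 3, 18052466 to 18054832), had 11946, 11169 and 11548 without and 4929, 5495 and 5300.0 with sucrose, a fall of 1.14 (SE 0.08), and in WT it fell by 0.25 (SE 0.08). SWEET17, a vacuolar fructose transporter gene, fell by 1.37 (SE 0.08) in FUS3 and by 0.25 (SE 0.08) in WT. The difference of responses was called for both.

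SWEET2 fell by 1.86 (SE 0.12) in FUS3 and by 1.42 (SE 0.12) in WT, and SWEET16 and SWEET10 fell by 0.78 and 0.85, beside falls of 1.06 and 1.05, with no called difference. SWEET13 rose in both lines, by 1.39 (SE 0.25) in FUS3 and by 2.52 (SE 0.25) in WT, a called difference. SAG29 rose by 0.86 (SE 0.20). SWEET4 and AT1G62660, a vacuolar invertase gene, were not called. ATSPS4F, a sucrose phosphate synthase gene, fell by 1.35 (SE 0.13) in FUS3, from 2409 ± 171 to 948 ± 204, and had 0.23 (SE 0.13) in WT, and this difference was called too.

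**Figure D5:**
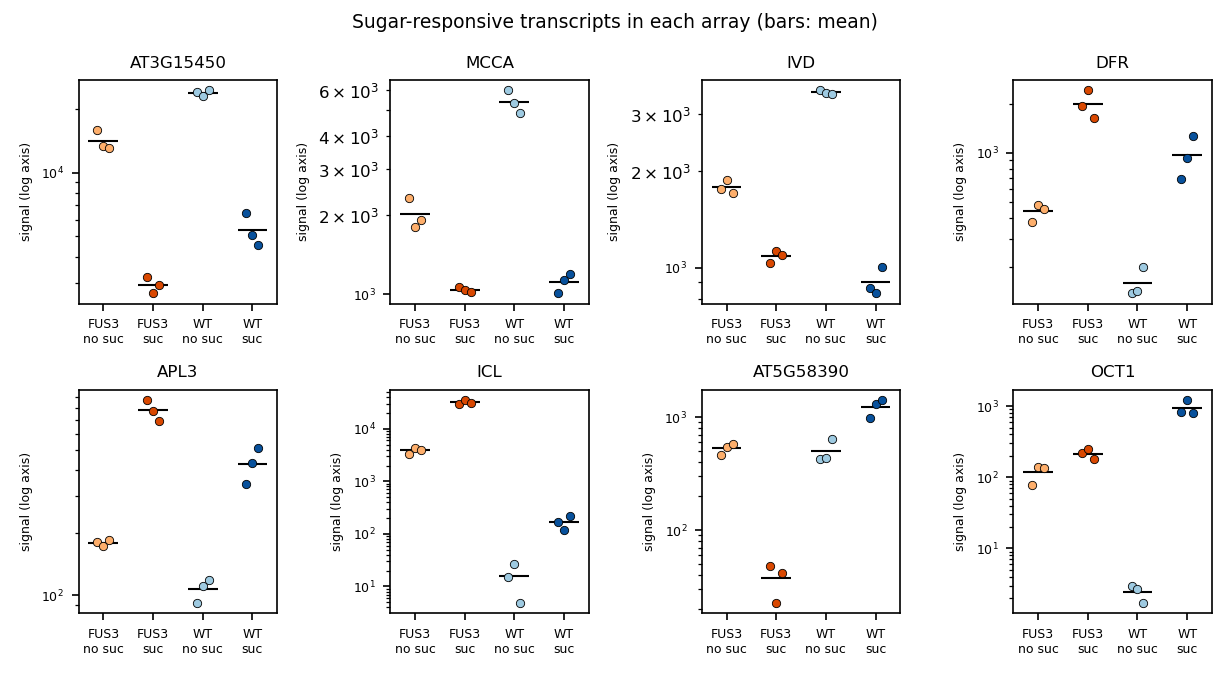
Signals (vertical axes, log scale, arbitrary array units, ranges differ between panels) of 8 sugar-responsive transcripts in each array. Points are arrays and bars are means of 3. AT3G15450, MCCA and IVD fall and DFR, APL3 and ICL rise with sucrose in both lines; AT5G58390 falls in FUS3 and rises in WT, and OCT1 goes from 2.46 to 949 in WT and from 118 to 215 in FUS3.

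CC-type glutaredoxins, small redox proteins of land plants, were another list chosen after its values were seen. Of 17 measured genes 10 fell and 1 rose in FUS3, with a median of -0.73, while in WT 8 fell and 5 rose, with a median of 0.10. The 2 responses differed for 11, by a positive difference for 4 and a negative one for 7. AT3G62950 (chromosome 3, 23266227 to 23267090) had 310.1, 141 and 253 without and 3.86, 3.93 and 1.53 with sucrose, a fall of 3.65 (SE 0.29), and in WT it fell by 4.55 (SE 0.29). AT5G18600 fell by 3.32 (SE 0.18) in FUS3, from 3659 ± 15.5 to 363 ± 110.2, and by 1.92 (SE 0.18) in WT.

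AT4G15700, AT4G15690 and AT4G15680, which are neighbours on chromosome 4 and whose near-identical sequences the probe sets may not separate, fell by 2.61, 2.13 and 1.90 in FUS3 and by 3.30, 3.39 and 3.32 in WT. Other members went opposite ways in the 2 lines. AT1G06830 fell by 1.07 (SE 0.15) in FUS3, from 1071 ± 71.8 to 506 ± 92.3, and rose by 1.14 (SE 0.15) in WT, from 410.2, 474 and 579 to 985, 1022 and 1271. AT2G47880 fell by 0.73 in FUS3 and rose by 1.11 in WT. The single rise in FUS3, AT5G11930 at 0.58, was lost without either of 2 arrays and under both rescalings.

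The 15 largest rises of named genes came largely from low levels. They ran from 5.27 to 6.92, the means without sucrose were 2.66 to 422 and those with sucrose 744 to 18740.2, and no WT mean exceeded 181. LEA genes made up 4 of the 15 (AT3G53040, M17, LEA18 and AT3G22490), with the oleosin gene AT2G25890 and the globulin gene AT1G03890. The largest was AT3G58450 (chromosome 3, 21621994 to 21623166), a gene that the annotation names by its locus alone. Its signals were 6.10, 6.38 and 18.0 without and 2704, 3684 and 2969 with sucrose, a rise of 6.92 (SE 0.24, adjusted p = 2.25e-10), and its WT means were 8.02 ± 5.22 and 7.03 ± 2.46.

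LCR67, the defensin gene also called PDF1.1 (AT1G75830; chromosome 1, 28472357 to 28472898), rose by 5.57 (SE 0.24), from 4.84, 12.1 and 5.04 to 1493, 982 and 862. Defensins are small cysteine-rich proteins with antifungal activity. AT2G38900 rose by 5.34 (SE 0.19) from the lowest level of the 15, 2.66 ± 1.22, to 744 ± 85.7. The other 6, named by locus alone, were AT5G66780, AT2G05580, AT3G60730, AT5G59170, AT5G55750 and AT3G21380, with rises of 5.27 to 5.82. In WT 1 of the 15, AT5G66780, rose too, by 1.21 (SE 0.23). A difference of responses was called for all 15, which follows largely from choosing them by their FUS3 change and is no separate result.

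The 15 largest falls ran from -5.14 to -2.43. AT2G05540 (chromosome 2, 2033154 to 2034283) had 14349, 12268 and 11746 without and 293, 326 and 436 with sucrose, a fall of 5.14 (SE 0.24), and in WT it fell by 3.42 (SE 0.24) from 18502 ± 1305 to 1825 ± 718. The glutaredoxin genes AT3G62950, AT5G18600 and AT4G15700 were among the 15. Of the 15 genes 9 were also called in WT, counting either direction: AT5G58390 and AT3G60420, described below, rose there.

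Several falls in FUS3 stood beside small changes in WT. AT2G47560 fell by 2.98 (SE 0.19), from 242, 221 and 188 to 12.3, 16.6 and 11.7, while its WT means were 217 ± 23.7 and 201 ± 39.6. AT4G27300 fell by 2.69 (SE 0.18), from 1729.7 ± 90.8 to 262 ± 73.8, beside 0.05 (SE 0.18) in WT. AT3G21670, the gene of the nitrate transporter family member NPF6.4, fell by 2.18 (SE 0.10), from 2417, 2337 and 2974 to 553, 566 and 541, beside -0.07 (SE 0.10). For AT2G47560 and AT3G21670 the FUS3 arrays without sucrose overlapped with the WT arrays, for AT4G27300 they lay below them, and for all 3 genes the FUS3 arrays with sucrose lay far below the rest. AT3G44970 fell by 3.24 (SE 0.13) beside a fall of 0.40 (SE 0.13) in WT. AT1G13650 fell by 3.23 (SE 0.29) and AT1G78450 by 3.04 (SE 0.24), beside WT changes of -0.53 (SE 0.29) and -0.46 (SE 0.24) that were not called.

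Opposite responses were called for 267 probe sets that name 1 gene, 117 of them higher with sucrose in FUS3 and lower in WT and 150 the reverse. AT5G07330 (chromosome 5, 2315947 to 2316874) had 469.6, 482 and 513 without and 10457, 14898 and 13499.6 with sucrose, a rise of 4.67 (SE 0.38), while it fell in WT by 1.21 (SE 0.38) from 88.1 ± 29.2 to 35.2 ± 29.9. AT1G47980 rose by 4.08 (SE 0.27) and fell in WT by 1.15, and AT1G15330 rose by 3.53 (SE 0.19) and fell in WT by 1.06.

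In the other direction AT5G58390, a class III peroxidase gene (chromosome 5, 23599470 to 23601404), had 463, 549 and 585 without and 48.4, 22.5 and 41.9 with sucrose. It fell by 3.38 (SE 0.21) in FUS3 and rose in WT by 1.29 (SE 0.21), from 502 ± 124 to 1243 ± 230.0, so the 2 lines had like levels without sucrose and stood far apart with it. AT1G76960 fell by 2.34 (SE 0.28) to signals of 2.48, 4.09 and 6.10 and rose in WT by 3.15 (SE 0.28) to 495 ± 175. AT3G60420 fell by 2.92 (SE 0.44) and rose in WT by 1.51, but its second probe set gave -0.30 in FUS3, and its signals without sucrose, 171, 164 and 678, were uneven.

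OCT1, an organic cation and carnitine transporter gene (AT1G73220; chromosome 1, 27538190 to 27540235), gave the second most negative difference of responses among probe sets that name 1 gene, -4.87 (SE 0.32, adjusted p = 1.73e-07). In FUS3 it had 77.5, 141 and 134 without and 220.3, 246 and 179 with sucrose, a rise of 0.82 (SE 0.23). In WT it rose by 5.68 (SE 0.23), from 2.46 ± 0.669 to 949 ± 236. AT5G52760 and AT4G19430 also rose in WT, by 2.71 and 2.93, and fell in FUS3 by 1.72 and 1.05. The fall of AT5G52760 rests on uneven signals without sucrose, 32.6, 3.74 and 191.

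Markers of cell types were few among the named genes. FMA, the gene of the guard cell factor FAMA (AT3G24140; chromosome 3, 8715118 to 8718211), had 538, 387 and 544 without and 156, 132 and 80.9 with sucrose, a fall of 1.89 (SE 0.21) beside -0.37 (SE 0.21) in WT, a called difference. SPCH and MUTE, which act before FAMA in the same lineage, were not called in FUS3, at -0.40 and -0.02. TRY, a repressor of trichome fate, fell by 1.52 (SE 0.24), from 93.7 ± 9.27 to 23.2 ± 11.5, beside 0.42 (SE 0.24) in WT. The root hair expansin genes EXPA7 and EXPA18 rose by 0.86 and 0.85 in FUS3 and by 0.93 and 1.12 in WT, and PYK10 was not called at -0.23 (SE 0.09). CLV3 of the shoot apex and the pollen gene AT5G45880 were not called. Their FUS3 signals were 1.79 to 7.99 and 5.35 to 32.7, so low that a missing call says little about either marker.

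Among hormone-related genes, COR15A, which responds to abscisic acid and cold, rose by 2.98 (SE 0.22) from 140.2 ± 24.0 to 1231 ± 283, beside 2.23 (SE 0.22) in WT. EXPA8, an expansin gene raised by gibberellin, fell by 0.76 (SE 0.10) in FUS3 and rose by 0.82 (SE 0.10) in WT, a called difference. The 3 gibberellin receptor genes GID1A, GID1B and GID1C were not called in FUS3. Of 4 reference genes GAPC2 was called lower, at -0.18, a call lost under 9 of the alternatives tried, and the others had -0.06 to 0.20.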

How the data were processed

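Total RNA of whole seedlings was measured on 12 ATH1 arrays, 3 in each of 4 groups, of which the 6 FUS3 arrays carry the main comparison. The deposited intensity values are linear MAS5 signals made with Affymetrix Expression Console, per the submitters' processing notes, which give no versions. In the values themselves every array has the same mean after its highest and lowest 2% are trimmed, and no detection call was used. No background correction or normalization was added here. Values were taken as log2(signal + 16), and 22746 probe sets, all but 64 controls, were fitted in limma 3.58.1 (R 4.3.3) with 4 group means and moderated variances with a trend. The contrasts were the sucrose response in FUS3, the sucrose response in WT and their difference. A call is an adjusted p (Benjamini-Hochberg) under 0.05. Control probe sets were compared by exact permutation in Python 3.11.15, and figures were drawn with matplotlib 3.10.9. The fit was tested on simulated data.

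Of 13513 probe sets that name 1 gene, 13484 matched the RefSeq annotation TAIR10.1. Where a locus had several probe sets, the one with the highest mean stood for it. Of 468 loci in 29 gene lists 116 were measured, and 6 more lists were drawn up after values had been seen. Genes to name were ranked by size, and not every ranked gene is described. The rankings held the 15 largest called rises and falls in FUS3 without overlap between the groups. Up to 4 members of a list were taken by smallest adjusted p, with the others as values. Also ranked were the 8 largest positive and negative differences of responses and the 6 largest among opposite calls. The last ranking held the 5 largest rises and falls with little WT change. Members and lists were chosen with earlier results of these data known. The alternatives tried were other added values, scalings, variance models, filters, a fold minimum, a replicate block and leaving out single arrays. The labels do not say what arrays with the same replicate number share, so no pairing was used. Deviations of same-numbered FUS3 arrays from their group means correlated at 0.025 to 0.040. Over all pairs of groups these correlations ran from -0.007 to 0.11.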

Additional observations from a re-analysis of the deposited data

Results flagged for a closer look

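The test of the difference of responses, FUS3 minus WT, was called for 5253 probe sets and for 20.4% of the named loci, and the counts by list are to be read against that share. It was called for all 5 storage protein genes, 8 of 11 lipid droplet genes, 19 of 22 LEA and desiccation genes, 2 of 3 seed regulators, 3 of 8 genes of plastid fatty acid synthesis and 2 of 4 of beta-oxidation and the glyoxylate cycle. It was also called for all 8 nuclear genes of light harvesting and the photosystems, all 3 of the Calvin cycle, 3 of 9 of sugar transport, 5 of 7 starvation genes, 11 of 17 CC-type glutaredoxin genes and 1 of 3 guard cell genes. Near or below the share of all named loci were 1 of 4 gibberellin genes, 1 of 7 flavonoid genes, 5 of 33 plastid-encoded photosynthesis genes, 1 of 10 NDH genes and 1 of 15 mitochondrial genes. These counts say nothing particular about their lists. Counts such as 3 of 8, 3 of 9, 2 of 4 and 1 of 3 were above the share, but rest on too few members to be read as a result. Of the 30 genes with the largest changes in FUS3, 28 had a called difference, but they were chosen by the FUS3 change that enters it, so this count describes the choice.

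Genes called in opposite directions were ranked by the difference itself, and their values are a description. The log2 difference of responses was 5.88 for AT5G07330, 5.24 for AT1G47980 and 4.59 for AT1G15330, which rose in FUS3 and fell in WT. It was -5.49 for AT1G76960, -4.67 for AT5G58390 and -4.43 for AT3G60420, which fell in FUS3 and rose in WT. A control outside the transcripts compared, the probe set for 25S ribosomal RNA, had a mean signal of 9915 in FUS3 with sucrose, above the 2088 of FUS3 without it. Its part in any result was not tested.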

How the results depend on the processing

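Among the named genes and list members, no called change turned its direction under the alternatives run. Of the values recomputed for these genes 3663 kept their side of the threshold, 110 lost a call and 56 gained one. The directions of the other called probe sets were not compared 1 by 1. The median of the 4 plastid RNA polymerase genes, none of them called, went from -0.06 to 0.28 without replicate 1 and to -0.30 without replicate 3 of FUS3 without sucrose. Requiring at least 2-fold left 2352 probe sets in FUS3 (1190 higher, 1162 lower), 1247 in WT (930 higher, 317 lower) and 1959 for the difference of responses (826 positive, 1133 negative). Subtracting array medians moved the rises to 3257 in FUS3 and 2333 in WT, and the falls in WT to 4235. Leaving out single arrays gave 7796 to 8240 calls in FUS3 (4204 to 4531 higher, 3565 to 3723 lower) and 4540 to 5247 in WT (2800 to 3228 higher, 1740 to 2059 lower). For the difference of responses it gave 4474 to 5009 calls (1893 to 2159 positive, 2581 to 2867 negative). The log2 difference of the 25S control was 2.16 to 2.44 without single arrays. With the replicate number as a block 9132, 6124 and 5550 probe sets were called in FUS3, WT and the difference, in each case more than without it. Since the labels do not say what a number shares, this is a description only. Leaving out the dimmest 40% of probe sets lowered counts of the seed lists because fewer of their members were tested. The planned comparison of promoter motifs was not run, since no promoter sequence was used here. Low signals limit what the largest folds mean, since values of a few units have no detection call behind them.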

Other observations

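Gene families set by the start of a gene's symbol, 43 with at least 5 measured members, add groups not described above; the families and members named here were chosen after their values were seen. RALF-like genes, which encode small secreted signalling peptides, were on the falling side: of 11 measured 5 fell and none rose in FUS3, with a median log2 change of -0.42, while in WT 3 rose and 1 fell, and the difference of responses was negative for 5. RALFL33 had signals of 5901, 5861 and 5844 without and 2594, 2795 and 2804 with sucrose, a fall of 1.10 (SE 0.10) beside -0.08 (SE 0.10) in WT. Over all named loci 20.6% were called higher and 15.1% lower in FUS3, 14.0% higher and 8.9% lower in WT, and 11.2% had a negative difference called. Of 6 CLE peptide genes 1 fell in FUS3, a share near that of all loci, and 3 rose in WT, with a negative difference called for 3. Of 19 genes whose symbols start with GH, which pools unrelated families, 1 rose and 3 fell in FUS3, the falls again near the share of all loci, while 8 rose in WT, and the difference was negative for 8.

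Some families held single large rises. PDF2.1, a defensin gene, had 1671, 1855 and 2308 without and 23812, 23542 and 23467 with sucrose, a rise of 3.60 (SE 0.16) beside 0.09 in WT. Of 20 beta-glucosidase genes 7 rose and 3 fell in FUS3 and 10 rose and 1 fell in WT. BGLU19 had 875, 507 and 671 without and 9005, 10718 and 10318 with sucrose, a rise of 3.87 (SE 0.24) beside 1.19 in WT, and it lies next to AT3G21380, one of the 15 largest rises, on chromosome 3 (7524054 to 7527677 and 7528181 to 7530686). BGLU33 fell by 1.81 (SE 0.11) and rose by 0.43 in WT.

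BHLH101, the gene of an iron deficiency factor, rose from 557 ± 21.9 to 1726 ± 105 in FUS3, by 1.60 (SE 0.17), and fell by 2.04 (SE 0.17) in WT, from 153 ± 14.6 to 25.8 ± 10.3. IAA29, an auxin response repressor gene, fell by 1.79 (SE 0.12) beside -0.04 in WT. TET15, a tetraspanin gene, rose by 3.66 (SE 0.20) from 8.96 ± 3.30 to 297 ± 9.24, with WT means below 5.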
